A study of Mus musculus with 3 samples.

Results

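H3K4me1 enriched regions were examined at 10 genes named at human type 2 diabetes risk loci, Tcf7l2, Prox1, Jazf1, Igf2bp2, Cdkal1, Thada, Cdkn2a, Cdkn2b, Adcy5 and Dgkb, in islets of the mouse. These are 10 of 22350 annotated protein-coding genes on chromosomes 1 to 19 and X. A region was linked to a gene when it overlapped the gene or when its nearest edge lay within 50 kb of any of its transcription start sites (TSS). By this rule 138 of the 65709 H3K4me1 enriched regions of the list were linked to the 10 genes. Pancreatic islets of CD1 mice aged 8 to 12 weeks recovered for 4 to 6 hours after isolation and were then held for 4 days in RPMI with IFNγ at 1.6 ng/ml, Il-1β at 0.25 ng/ml and TNFα at 0.16 ng/ml. DNA of several separate chromatin immunoprecipitations (ChIP) was pooled into 1 library, so there are no replicates, no spread between samples and no test in what follows. Whole islets were used, so a region can come from any cell type of the islet. No untreated H3K4me1 list and no expression values were analysed here, and what was in place before the cytokines cannot be told apart from what followed them. For each region the list gives a start and an end on a grid of 200 bp in the mm9 genome, and no read count, height, score or p-value, so the depth behind a region is unknown and a stretch without a region can hold signal below the calling threshold.

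Monomethylation of lysine 4 of histone H3 marks chromatin at enhancers and around promoters that are active or poised, and at an active promoter it often flanks the start site while trimethylation of the same residue sits over it. Human variants associated with type 2 diabetes lie mostly outside coding sequence, many of them in introns, and several of the genes nearest to them act in β-cells, in the growth of these cells or in insulin secretion. Which gene such a variant acts through is known at few loci, and a gene's name at a locus does not show that it is the gene affected. No human position was carried over to the mouse genome, so the values below do not show where human variants fall.

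Some lists bear on the tissue. Of the 12 islet markers, 7 had a region within 2 kb of the first TSS, which is the most upstream one, whereas 1 had a region over any TSS. Over all protein-coding genes these shares were 58.8% and 39.1%, so the first count is near the background and the second below it. The corresponding numbers within 2 kb were 1 of 7 acinar markers, 4 of 4 duct markers, 1 of 8 leukocyte markers and 5 of 7 endothelial and stromal markers. How much cells other than endocrine cells contributed to the regions at the 10 genes was not tested.

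The DNA just upstream of the start sites differed widely between the genes. The 200 bases before 6 TSS are shown because they hold start sites with and without an H3K4me1 region over them. They were read from the mm9 reference genome on the strand of the gene, 5′ to 3′, and end 1 base before the TSS. Capitals mark each CpG dinucleotide.
Cdkn2a upstream TSS (chr4:88940558-88940757, minus strand): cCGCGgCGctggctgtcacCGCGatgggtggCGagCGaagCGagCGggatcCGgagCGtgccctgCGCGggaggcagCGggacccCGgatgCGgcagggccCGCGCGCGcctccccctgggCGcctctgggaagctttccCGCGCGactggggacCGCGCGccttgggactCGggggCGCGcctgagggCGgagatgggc
Cdkn2a downstream TSS (chr4:88928097-88928296, minus strand): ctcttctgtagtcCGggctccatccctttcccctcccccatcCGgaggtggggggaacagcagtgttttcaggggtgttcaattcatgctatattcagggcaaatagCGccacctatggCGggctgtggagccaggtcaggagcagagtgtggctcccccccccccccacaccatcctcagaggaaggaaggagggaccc
Cdkn2b (chr4:88956942-88957141, minus strand): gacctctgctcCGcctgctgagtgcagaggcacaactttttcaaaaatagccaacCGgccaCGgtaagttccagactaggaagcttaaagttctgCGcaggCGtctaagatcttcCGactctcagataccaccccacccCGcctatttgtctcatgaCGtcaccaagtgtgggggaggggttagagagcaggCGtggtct
Tcf7l2 (chr19:55816100-55816299, plus strand): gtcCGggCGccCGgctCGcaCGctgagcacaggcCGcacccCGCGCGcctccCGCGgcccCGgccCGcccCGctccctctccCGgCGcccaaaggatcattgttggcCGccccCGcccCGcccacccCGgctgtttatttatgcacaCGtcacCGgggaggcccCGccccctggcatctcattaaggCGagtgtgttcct
Prox1 (chr1:191994560-191994759, minus strand): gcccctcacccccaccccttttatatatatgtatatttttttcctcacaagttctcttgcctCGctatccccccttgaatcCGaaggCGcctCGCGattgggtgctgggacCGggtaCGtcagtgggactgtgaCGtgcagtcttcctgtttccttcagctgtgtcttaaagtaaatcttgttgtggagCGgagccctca
Dgkb first TSS (chr12:38606561-38606760, plus strand): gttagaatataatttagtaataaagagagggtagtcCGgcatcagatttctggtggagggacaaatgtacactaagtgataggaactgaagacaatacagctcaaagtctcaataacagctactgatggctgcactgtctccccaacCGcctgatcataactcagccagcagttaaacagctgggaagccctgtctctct

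The 200 bases before the upstream TSS of Cdkn2a held 31 CpG dinucleotides and were 78.5% G or C, and those before its downstream TSS held 4 and were 61.0% G or C. Both of these start sites lay under regions. Cdkn2b, whose TSS was also covered, held 9 CpG in the same stretch. The covered TSS of Adcy5 and Thada followed stretches with 32 and 15 CpG. The uncovered first TSS of Tcf7l2, Jazf1 and Igf2bp2 followed stretches with 24, 26 and 33 CpG, and those of Prox1, Cdkal1 and Dgkb followed stretches with 9, 5 and 2. Covered and uncovered first TSS of the 10 genes therefore overlapped in CpG number. The number depends on the start site that is read. The uncovered TSS of Tcf7l2 at position 55816822 followed a stretch with 2 CpG, and that of Cdkal1 at position 29947300 a stretch with 11. Over all 22350 protein-coding genes the median was 12 CpG where the first TSS was covered and 4 where it was not.

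Most of the linked regions lay in introns. A second set of stretches is shown to give the letters of such intronic DNA, 1 for each of 6 genes. Each is the 200 bp grid interval that, among the wholly intronic regions of its gene, held the most different motifs out of the 9 described further on. Where intervals tied, which happened at Tcf7l2, Cdkal1, Jazf1 and Prox1, the one with more motif matches and then the lower coordinate was taken. The choice thus rested on motifs, so their motif content is not a result. They are printed on the strand of the gene, and capitals mark the bases of the motifs.
Tcf7l2 (chr19:55867201-55867400, plus strand): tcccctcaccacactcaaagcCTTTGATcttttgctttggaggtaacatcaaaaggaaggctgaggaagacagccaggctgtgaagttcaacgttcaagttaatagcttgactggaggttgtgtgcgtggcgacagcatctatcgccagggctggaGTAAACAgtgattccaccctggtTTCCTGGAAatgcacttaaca
Cdkal1 (chr13:29398201-29398400, minus strand): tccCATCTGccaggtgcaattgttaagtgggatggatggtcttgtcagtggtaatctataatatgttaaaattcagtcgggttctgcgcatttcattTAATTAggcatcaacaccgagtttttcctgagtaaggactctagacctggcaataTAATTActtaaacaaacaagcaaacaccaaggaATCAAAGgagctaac
Igf2bp2 (chr16:22125401-22125600, minus strand): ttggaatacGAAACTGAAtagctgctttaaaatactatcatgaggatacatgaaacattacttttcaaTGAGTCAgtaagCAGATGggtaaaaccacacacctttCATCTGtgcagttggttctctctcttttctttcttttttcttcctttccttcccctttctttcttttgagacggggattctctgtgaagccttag
Jazf1 (chr6:52788601-52788800, minus strand): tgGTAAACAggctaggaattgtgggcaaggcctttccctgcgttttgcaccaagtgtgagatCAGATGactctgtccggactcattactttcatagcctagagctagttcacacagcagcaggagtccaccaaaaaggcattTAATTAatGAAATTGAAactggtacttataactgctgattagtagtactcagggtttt
Prox1 (chr1:191953001-191953200, minus strand): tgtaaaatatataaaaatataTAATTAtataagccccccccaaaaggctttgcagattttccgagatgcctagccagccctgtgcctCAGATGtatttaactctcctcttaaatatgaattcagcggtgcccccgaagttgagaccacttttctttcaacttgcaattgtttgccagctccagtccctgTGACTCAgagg
Dgkb (chr12:38615601-38615800, plus strand): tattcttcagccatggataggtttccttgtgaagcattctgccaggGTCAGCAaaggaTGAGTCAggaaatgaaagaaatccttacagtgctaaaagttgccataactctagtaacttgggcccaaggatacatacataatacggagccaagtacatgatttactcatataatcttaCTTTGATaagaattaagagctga

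The Tcf7l2 stretch lay in the 6.4 kb region of intron 3 and held the FOXA, TCF/LEF and STAT letters. The Jazf1 stretch held 4 different motifs, FOXA, homeodomain, NEUROD E-box and IRF. The Dgkb stretch came from the only intronic region in the first intron of that gene. These are matches of letters in the reference sequence, in which CD1 mice can differ, and no binding was measured.

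The 138 regions formed 142 pairs of a gene and a region, because all 4 regions at Cdkn2a were linked to its neighbour Cdkn2b as well. Of the 138, 125 overlapped one of the 10 genes (90.6%, exact 95% binomial interval 84.4 to 94.9) and 13 lay outside every one of them. Such intervals cover counting error only. The rule takes regions along the whole of a gene, but outside it only within 50 kb of a TSS. The overlapping share thus depends on the rule and on gene length. A position wholly within introns was found for 103 regions (74.6%, 66.5 to 81.65), a position over an exon but no TSS for 13 (9.42%), and a position over a TSS for 9 (6.52%). Among the 125 regions that overlapped a gene, 82.4% (74.6 to 88.6) were wholly intronic. For comparison, of 42646 regions that overlapped any protein-coding gene in the genome 61.0% were wholly intronic, 17.7% lay over an exon and 21.3% lay over a TSS. The 10 genes are long, with 7 of them above 100 kb, and the part of length in this difference was not tested. The closest protein-coding TSS was that of one of the 10 genes for 112 of the 138 regions (81.2%, 73.6 to 87.3).

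**Figure D1:**
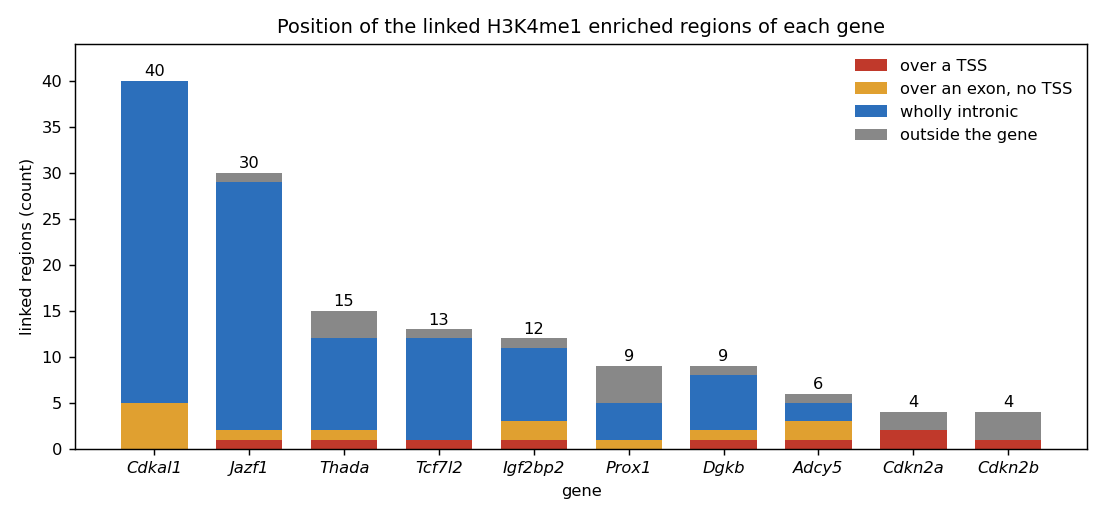
Linked H3K4me1 enriched regions of each gene (y axis, count) by position, with genes ordered by their number of linked regions on the x axis. Cdkal1 had 40 and Jazf1 had 30, most of them wholly intronic (blue), whereas Cdkn2a and Cdkn2b had 4 each and none in an intron.

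Every one of the 10 genes was overlapped by at least 1 region, against a background of 64.5% of all protein-coding genes. By length this background was 49.4% under 20 kb, 81.3% from 20 to 100 kb, 91.5% from 100 to 300 kb and 95.3% over 300 kb, so for genes of this length 10 of 10 is near it. A region over any annotated TSS was present at 8 of the 10, against 39.1% of all protein-coding genes. The background of TSS cover likewise rose with gene length, from 31.9% under 20 kb to 63.45% over 300 kb. With TSS of protein-coding transcripts alone the number was 6, because the covered start sites of Jazf1 and Igf2bp2 belonged to noncoding transcripts. The first TSS itself was covered in 4 of the 10, namely Cdkn2a, Cdkn2b, Thada and Adcy5, against 31.1% of all protein-coding genes, and this share is near the background. A region lay over or within 2 kb of the first TSS in 9 of the 10, against 58.8% of all protein-coding genes. Prox1 was the exception. This last background was not split by gene length. The same held for 42 of the 48 genes of the wider list and 22 of the 25 paralogues, both described below.

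The number of regions per 100 kb of gene differed widely between the genes. Over the 10 genes the median was 7.96 regions per 100 kb, from 1.06 at Dgkb to 21.1 at Cdkn2b, beside a median of 4.08 with quartiles of 0 and 9.998 over all protein-coding genes. The median share of the gene covered by regions was 11.0%, from 1.54% at Dgkb to 49.35% at Cdkn2b, beside 4.76% over all. Because short genes often have no region at all, each gene was set beside those of its own length class. The median density was 0 under 20 kb, 4.40 from 20 to 100 kb, 3.72 from 100 to 300 kb and 2.24 over 300 kb. Of the 10 genes 8 lay above the median of their class and 6 above its upper quartile, with Adcy5 and Dgkb below the median. Cdkn2a was above the upper quartile by count only: its cover stood at percentile 54.8 of its class, and by the midpoints of regions its density was 4.96, beside an upper quartile of 7.73 that was counted by overlap. At 20.18 kb Cdkn2a was also just past the 20 kb edge of its class, and the upper quartile of the class under 20 kb was 15.23. These ranks describe 10 genes picked by name and were not tested.

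**Figure D2:**
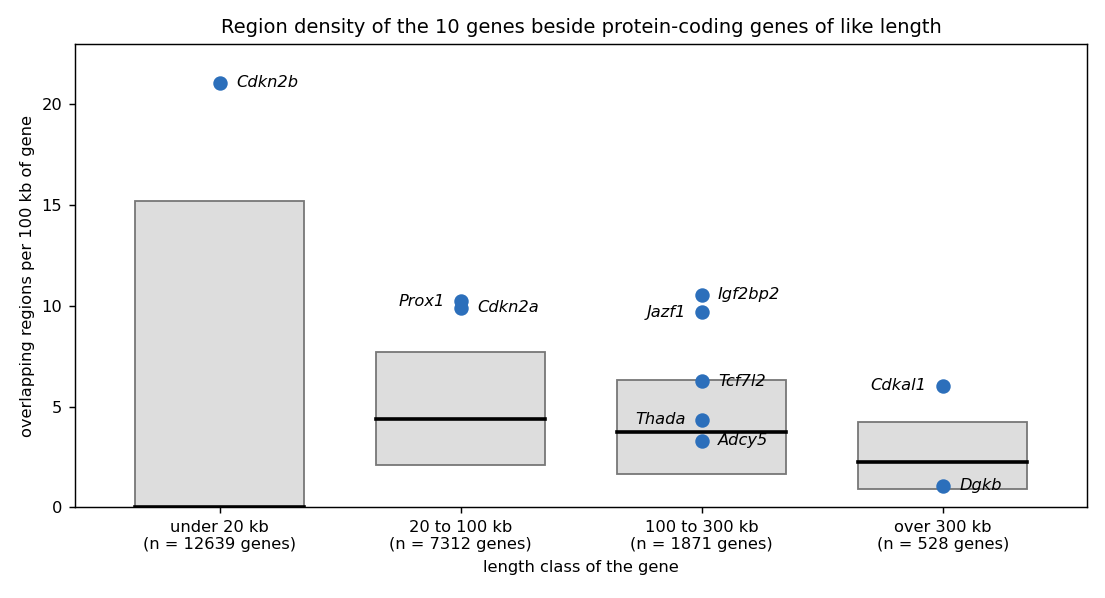
Regions that overlap the gene per 100 kb of gene (y axis) for the 10 genes (blue points) in 4 classes of gene length (x axis). Grey boxes span the quartiles and black lines give the medians of all protein-coding genes of the class. Cdkn2b, Prox1, Cdkn2a, Igf2bp2, Jazf1 and Cdkal1 sit above the boxes, Tcf7l2 and Thada in the upper part of theirs, and Adcy5 and Dgkb below the class median.

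The transcription factors and cofactors were taken first. Tcf7l2 encodes a transcription factor that partners β-catenin in Wnt signalling. The gene spans 191.8 kb of the plus strand (chr19:55816300-56008144) and had 13 linked regions, of which 11 were wholly intronic, 1 lay over an internal TSS and 1 lay 34.7 kb upstream. At 6.26 regions per 100 kb it stood at percentile 74.6 of the 1871 protein-coding genes of 100 to 300 kb, but with regions of at least 1000 bp alone the density was 3.13. The intronic regions were split between intron 3 with 5, intron 4 with 5 and intron 5 with 1, where introns are counted from the 5′ end of the longest protein-coding transcript. The widest, at chr19:55865801-55872200, reached 6.40 kb and lay 20.1 kb from the nearest exon. The main cluster of start sites at the 5′ end was bare. From the first of them the next region upstream was 34.7 kb away and the next downstream 1.70 kb away, in intron 3. The covered start site, at position 55969024 in the 3′ part of the gene, belongs to a protein-coding transcript and was overlapped by a region of 0.80 kb. From the end of that region on, the last 38.3 kb of the gene held none.

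Prox1, which encodes a homeodomain factor of pancreas, liver and lymphatic development, spans 48.9 kb of the minus strand (chr1:191945660-191994559). Its 9 linked regions were 4 in introns, 1 over the 3′ UTR and 4 upstream. Introns 1, 2, 3 and 4 held 1 region each, of 2, 2.6, 1.6 and 4.6 kb in that order. The single TSS was bare and flanked, with regions ending 3.44 kb upstream and starting 2.56 kb downstream. The 4 upstream regions, the farthest at 21.4 kb, overlapped Gm17566, an annotated neighbour, and still had the TSS of Prox1 as their closest protein-coding TSS. With 10.2 regions per 100 kb and 23.2% covered, Prox1 stood at percentile 88.6 for density among 7312 genes of 20 to 100 kb.

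Jazf1 encodes a nuclear zinc finger protein that acts as a cofactor of nuclear receptors. It spans 299.8 kb of the minus strand (chr6:52718791-53018625), and regions ran along its whole body. There were 30 linked regions, with 27 in introns, and the counts in equal 5′, middle and 3′ parts of the gene were 9, 10 and 10. Intron 1, of 174.4 kb, held 15, intron 2, of 81.7 kb, held 9, and intron 3, of 34.4 kb, held 3. The longest stretch without a region was 20.4 kb, and the median gap between neighbouring regions of the gene was 5.50 kb. Over the genome the median gap was 10.6 kb, with gaps outside genes included. Within the other genes with more than 1 overlapping region it ran from 3.4 kb at Igf2bp2 to 67.6 kb at Dgkb. In total 86.2 kb or 28.75% of Jazf1 was covered, the largest covered length among the 10 genes, although Cdkal1 and Dgkb are far longer. The first TSS was bare, with a 4.80 kb region starting 0.825 kb into the gene. The closest protein-coding TSS was that of Tax1bp1 for 14 of the 30 regions, the 14 farthest downstream of the first TSS of Jazf1. A rule of the nearest protein-coding TSS would thus give these to another gene. With noncoding transcripts counted, each of the 14 lay nearer to an annotated TSS of Jazf1 than to that TSS of Tax1bp1. The region at chr6:52723001-52730600, for instance, lay over the Jazf1 TSS at position 52728303.

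**Figure D3:**
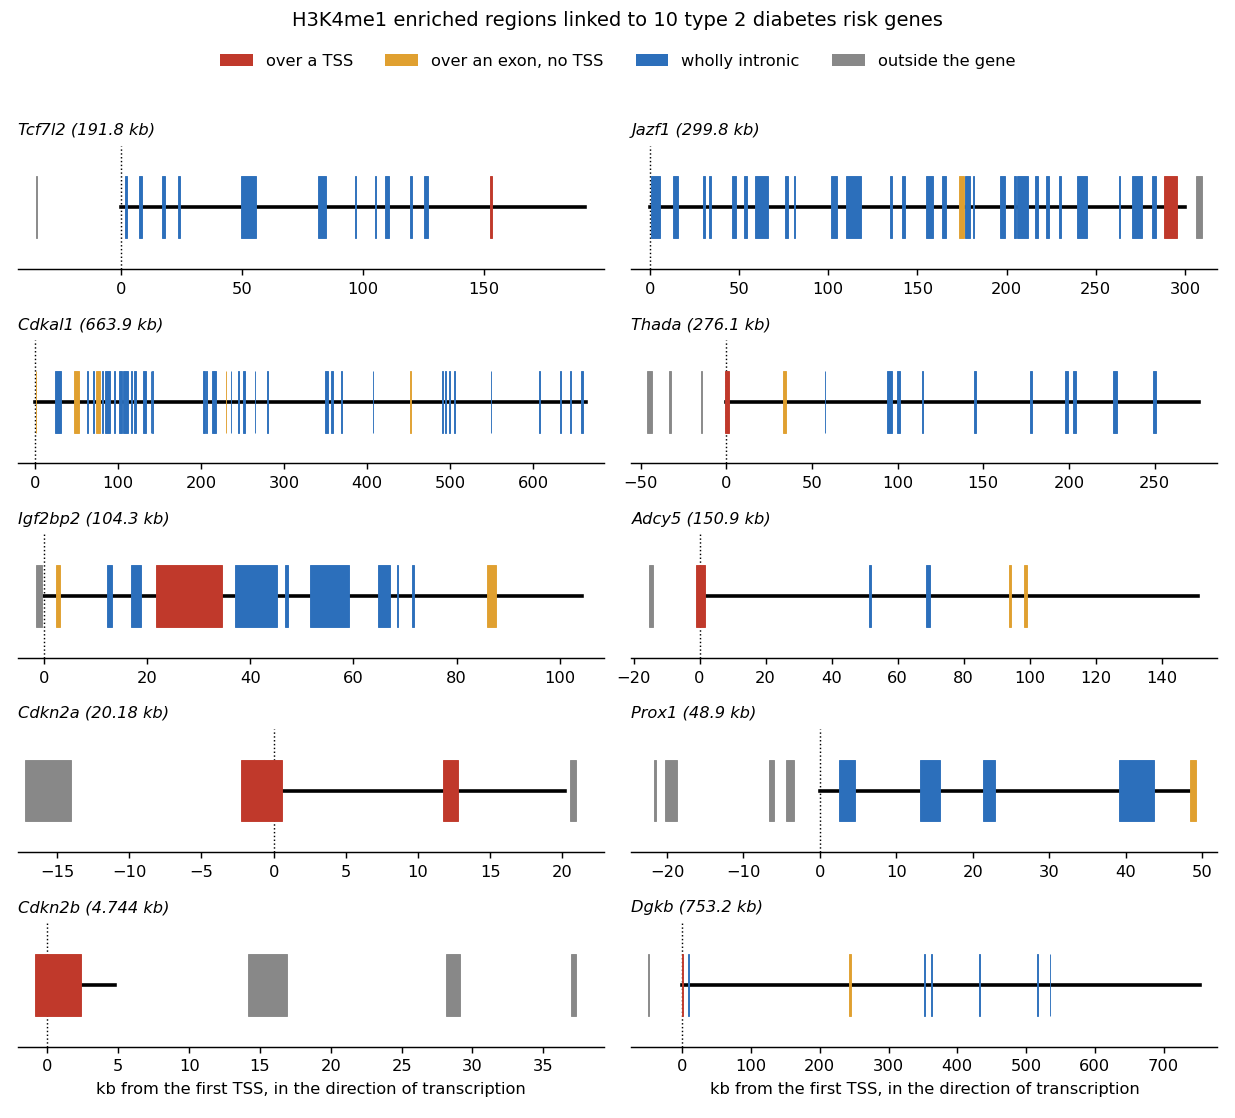
Linked H3K4me1 enriched regions along each of the 10 genes, drawn to scale for each gene with the direction of transcription to the right. The x axis is the distance in kb from the first TSS (dotted line), the black line is the gene, and boxes are regions coloured by position. Boxes spread along the whole of Jazf1, crowd into the 5′ part of Cdkal1 and leave long empty stretches in Dgkb.

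Proteins that act on RNA formed the next group. Igf2bp2 encodes a protein that binds messenger RNA, including that of the growth factor Igf2. It spans 104.3 kb of the minus strand (chr16:22059082-22163372) and had 12 linked regions, all 8 intronic ones in intron 2. This intron, of 72.1 kb, was 49.6% covered. The gene also held the widest of the 138 regions, 12.8 kb at chr16:22128801-22141600, which lay in the same part of the gene over the start site of a noncoding transcript at position 22137282. At 10.55 regions per 100 kb and 35.9% covered, Igf2bp2 stood at percentile 94.9 for density and 94.5 for cover among genes of 100 to 300 kb, and with regions of at least 1000 bp alone its density was 6.71. The first TSS was bare, with 1 region 0.429 kb upstream and the next 2.37 kb downstream.

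Cdkal1 encodes an enzyme that modifies a transfer RNA for lysine. At 663.9 kb (chr13:29283615-29947543, minus strand) it had the most linked regions, 40, and every one overlapped the gene. Of these 35 were wholly intronic and 5 lay over exons. The counts in equal 5′, middle and 3′ parts were 20, 10 and 10. Intron 5, of 59.4 kb, held 8 regions, 13.5 per 100 kb, and was 39.9% covered, beside 11.9% for the gene as a whole. Intron 9 held 5, intron 8 held 4, introns 4 and 11 held 3 each, introns 6 and 13 held 2 each, and introns 12, 14 and 15 held 1 each. A further 5 lay past the 3′ end of the longest protein-coding transcript, in introns of other transcripts. No start site of Cdkal1 was covered. The nearest region to the first TSS began 0.743 kb downstream, whereas upstream the next region was 127.9 kb away, the longest such distance among the 10 genes. With 6.03 regions per 100 kb it stood at percentile 85.9 of the 528 genes over 300 kb. For 2 regions near its 3′ end the closest protein-coding TSS was that of Sox4, which was chosen for mention after its values were seen.

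Thada resembles a subunit of a transfer RNA methyltransferase and is named after thyroid adenomas in which it is rearranged. It spans 276.1 kb of the minus strand (chr17:84589396-84865536) and had 15 linked regions, with 10 in introns, 1 over an exon, 1 over the TSS and 3 upstream. The 2.40 kb region at chr17:84863801-84866200 lay over its only TSS. Intron 26, of 49.6 kb, held 3 regions and intron 30 held 2, and introns 22, 28, 29, 31 and 36 held 1 each. None of the first 21 introns held a wholly intronic region. For 6 of the 15 regions, those farthest downstream of the TSS, the closest protein-coding TSS was that of Zfp36l2, and for 2 of the upstream ones it was that of Plekhh2, likewise named after its values were seen. At 4.35 regions per 100 kb it stood at percentile 56.7 of its length class.

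Cdkn2a gives rise to p16Ink4a, an inhibitor of cyclin D dependent kinases, and from an upstream first exon to p19Arf, which stabilises p53. Cdkn2b, its neighbour on the same strand, encodes p15Ink4b, which inhibits the same kinases. Each of the start sites of this locus lay under a region. A 2.80 kb region at chr4:88940001-88942800 lay over the upstream start sites of Cdkn2a at positions 88940557 and 88940523. A separate 1 kb region at chr4:88927801-88928800 lay over the downstream one at position 88928096. A 3.20 kb region at chr4:88954601-88957800 lay over that of Cdkn2b. The fourth region linked to both genes, of 0.40 kb, lay downstream of Cdkn2a at chr4:88919601-88920000. No region lay wholly within an intron of either gene. From the first TSS of Cdkn2a the next region apart from its own lay 14.0 kb upstream and 11.8 kb downstream, and from the TSS of Cdkn2b the next upstream lay 58.1 kb away. Because these genes are 20.2 and 4.74 kb long, densities of 9.91 and 21.1 per 100 kb rest on 2 regions and 1 region, which left 7.72% and 49.35% of these genes covered.

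The enzymes of second messenger signalling had the lowest densities of the 10 genes. Adcy5 encodes an adenylyl cyclase, which makes cyclic AMP. It spans 150.9 kb of the plus strand (chr16:35154963-35305823) and had 6 linked regions, of which 1 lay over the TSS, 2 over coding exons, 2 in intron 1 and 1 upstream. Intron 1, of 91.6 kb, was 2.28% covered. The 2.60 kb region at chr16:35154001-35156600 lay over the TSS, and the next one downstream was 51.2 kb away. The last 51.6 kb of the gene held none. At 3.31 regions per 100 kb and 3.34% covered, Adcy5 stood at percentile 46.3 for density in its class, and with regions of at least 1000 bp alone its density was 1.99.

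Dgkb encodes the β form of diacylglycerol kinase, which turns diacylglycerol into phosphatidic acid. It is the longest of the 10 genes at 753.2 kb (chr12:38606761-39359997, plus strand), and only 8 regions overlapped it. At 1.06 regions per 100 kb and 1.54% covered it stood at percentile 29.1 of the genes over 300 kb. The first TSS lay 0.44 kb upstream of a 1.20 kb region at chr12:38607201-38608400, which covered the start sites at positions 38607292 and 38607303. Stretches of 233.6 kb (chr12:38616001-38849600) and 218.2 kb were free of regions. Intron 21 held 3, intron 22 held 2 and intron 1 held 1, and the longest intron, 24, of 164.0 kb, held none. The sequence of Dgkb was 36.8% G or C, the lowest of the 10, with 50.5% at Adcy5 the highest, and none of the 10 held unread bases in the reference. The part of base composition in these counts was not tested.

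Across the genes, intronic regions were found mainly in long introns. The reference transcripts had 139 introns, of which 31 were at least 20 kb long, and these 31 held 91 of the 98 intronic regions that lay in introns of these transcripts. At least 1 region was present in 26 of the 31 and in 6 of the 108 shorter introns. Per length the 2 sets gave 4.71 and 1.71 regions per 100 kb. A region of a given width is less likely to lie wholly inside a short intron, so the 2 values are not free of that construction. Introns of like length differed several-fold: intron 5 of Cdkal1 (59.4 kb) and intron 2 of Igf2bp2 (72.1 kb) held 8 each, intron 1 of Adcy5 (91.6 kb) held 2, and intron 1 of Dgkb (100.8 kb) held 1. The median distance of an intronic region to the nearest exon was 33.1 kb in Adcy5, which had only 2 such regions, 25.5 kb in Jazf1, 12.9 kb in Dgkb, 11.6 kb in Cdkal1, 9.73 kb in Thada, 5.25 kb in Tcf7l2, 4.24 kb in Igf2bp2 and 1.77 kb in Prox1. The largest single distance was 77.6 kb, in Jazf1.

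**Figure D4:**
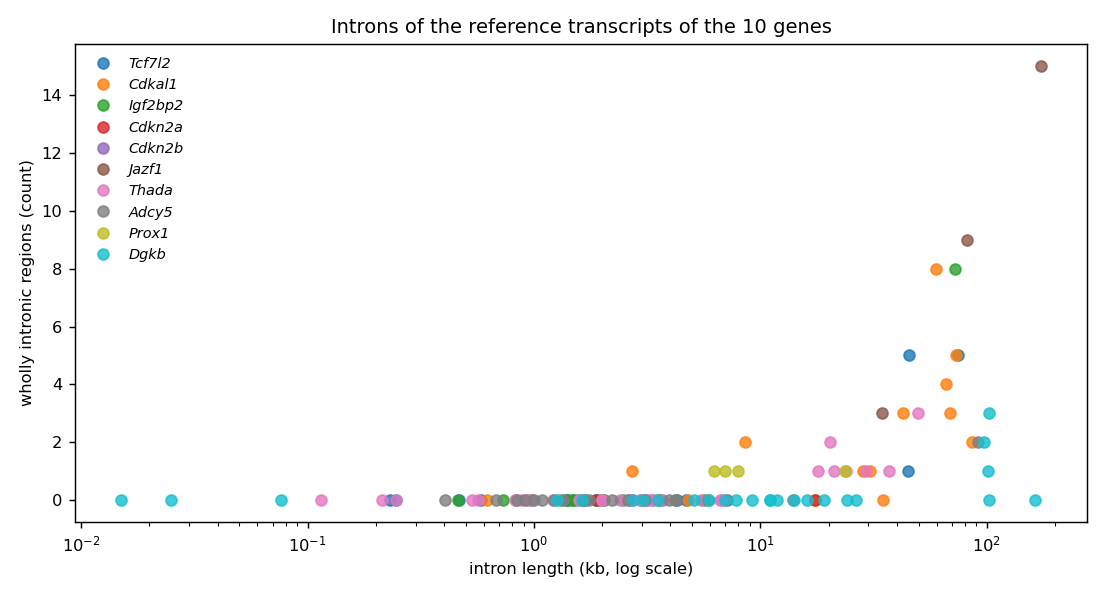
Wholly intronic regions (y axis, count) against intron length in kb (x axis, log scale) for each intron of the longest protein-coding transcript, coloured by gene. Counts above 3 occur only at introns longer than 20 kb, and long introns of Dgkb and Adcy5 hold few.

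Linked regions had a median width of 1400 bp with quartiles of 800 and 2600 bp, beside 1200 bp with quartiles of 600 and 2400 bp over all 65709. Only 1 of the 138 was wider than 10 kb (0.725%), beside 2.015% of all. Their median GC content was 44.2% (quartiles 42.0 and 47.0), beside 45.9% (42.25 and 50) over all regions. At the 50 kb limit of the rule, the farthest linked region outside a gene lay 48.4 kb from the first TSS of Dgkb, and the nearest one just beyond the limit lay 51.7 kb from a TSS of Jazf1.

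Short motifs of factors known in islets or in cytokine signalling were searched on both strands in the central 200 bp of each region. They were TGTTTAC for FOXA, then TAATTA for homeodomain proteins, CAGATG for the NEUROD E-box, TGCTGAC for a MAF site, CTTTGAT for TCF/LEF, TGANTCA for AP-1, TTCNNNGAA for STAT, GAAANNGAA for IRF and GGANTTTCC for NF-kB, where N is any base. The IRF letters were found in 19 regions (13.8%, 8.497 to 20.7), beside 7.03% of all 65650 regions on the main chromosomes, with 7 of the 19 in Jazf1, 4 in Cdkal1, 3 each in Igf2bp2 and Tcf7l2 and 2 in Thada. The homeodomain letters were found in 16 (11.6%, 6.77 to 18.1), beside 6.56%. The NEUROD E-box was found in 18 (13.0%, 7.92 to 19.8), beside 16.4%, and AP-1 in 13 (9.42%, 5.11 to 15.6), beside 7.75%. NF-kB was found in 1, in Igf2bp2, beside 0.7997% of all. The remaining 4 motifs lay between 2.17% and 4.35%, and the shares over all regions lay within their intervals. GC content was lower in the linked regions, and its part in the shares of motifs rich in A and T was not tested. The intervals take the regions as independent and so do not measure how genes vary. Whether regions of 1 gene are alike was not tested.

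**Figure D5:**
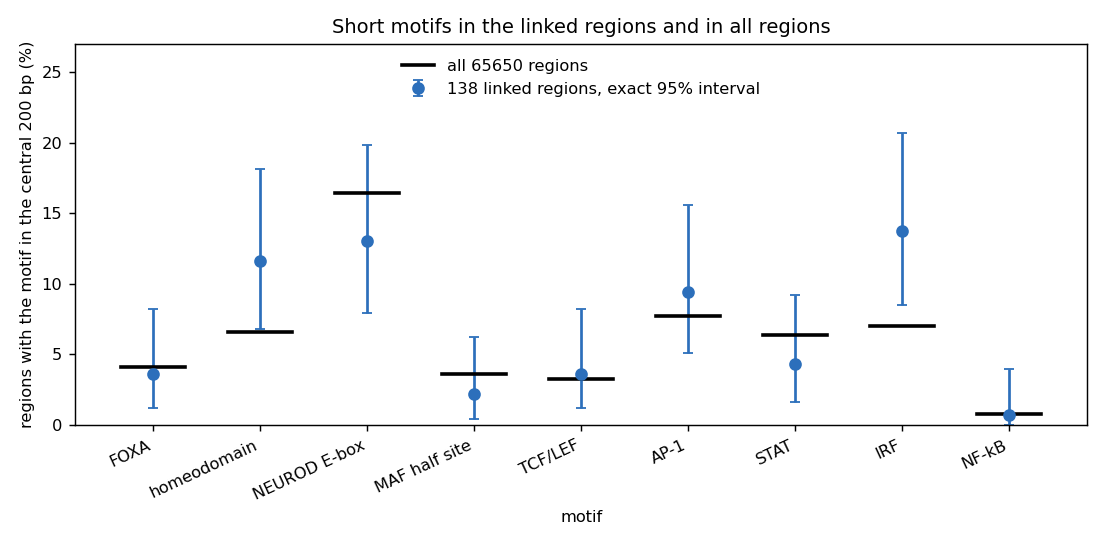
Share of regions that hold each of 9 short motifs in their central 200 bp (y axis, percent; motifs on the x axis). Blue points with exact 95% binomial intervals are the 138 linked regions and black lines are all 65650 regions. The intervals take the regions as independent. They lie above the line for IRF and, narrowly, for homeodomain (lower limit 6.77 beside 6.56), and span it for the other 7.

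A wider list of 48 genes commonly named at type 2 diabetes or fasting glucose loci was counted in the same way. A region lay over a TSS in 29 of the 48 (60.4%, beside 39.1% of all protein-coding genes), within 2 kb of the first TSS in 42 (beside 58.8%), and overlapped the gene in 46 (beside 64.5%). The list mixes gene lengths, with which these background shares change. The median density was 6.09 regions per 100 kb, and the median cover 18.15%, beside 7.96 and 11.0% for the 10 genes. Among the 41 genes of at least 10 kb those with the most regions per 100 kb included Ap3s2 (15.45), Slc2a2, which encodes the glucose transporter Glut2 (13.1), St6gal1 (12.5) and Slc30a8, which encodes the zinc transporter of insulin granules (12.4). The fewest were found at Gckr (0), Ptprd (0.617), Notch2 (0.731), Kcnq1 (1.56) and Cdc123 (1.97). Igf2bp2, Prox1 and Jazf1 lay below the genes named at the upper end, and Dgkb lay between Notch2 and Kcnq1.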

How the data were processed

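Islets were profiled by H3K4me1 ChIP-seq as 1 pooled library. For this library the authors aligned reads to the mm9 genome using bowtie2 (2.2.1 per the submitters' processing notes) and found enriched regions using ChromHMM. The deposited file used here gives the start and end of each region. Reads were not analysed here. The settings of ChromHMM are not given in the sources used here, and the study's methods merge the regions of treated and untreated islets and then filter them, without saying whether the deposited list was written before or after that step. The methods name the mice as ICR with a narrower age range, whereas the labels, followed here, name them as CD1. Each start had 1 added so that positions count from 1. No region on chromosomes 1 to 19 and X ran past the end of its chromosome in the reference genome NCBIM37, which is mm9. Genes, exons and TSS came from GENCODE M1, with chromosomes 1 to 19 and X as background. Density is the number of regions that overlap the gene per 100 kb of gene, and a percentile is the share of genes in the class below the value, ties counted in part. Positions were set against the merged exons of all transcripts of a gene. The 95% binomial intervals of shares are exact and reflect counting error alone. No test was run. The linking, classing and motif search were tested on simulated regions and sequences. Python 3.11.15, numpy 2.4.6, scipy 1.17.1 and matplotlib 3.10.9 were used. The 10 genes and the lists were chosen with earlier results of these data known. All 10 genes were named, other genes if theirs was the closest protein-coding TSS of at least 3 linked regions, and, of the wider list, the 5 genes of at least 10 kb with the most and the 5 with the fewest regions per 100 kb; 1 gene that this rule names is not reported here. Alternatives were a minimum width of 400 or 1000 bp, merging over gaps of up to 1000 bp, windows of 20 and 100 kb, the midpoint of a region in place of its extent, and protein-coding transcripts only. Repeat content was not computed. RNA-seq samples were not analysed here.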

Additional observations from a re-analysis of the deposited data

How the results depend on the processing

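Values over all 10 genes were computed under each other setting that could change them, and 39 of 42 such values stayed within the interval of the share or within 1.5 times the count or median. Densities, cover and TSS counts do not depend on the window, and cover and TSS counts were not computed by midpoint. One setting, the median without Cdkn2b, was chosen after seeing the data and gave 6.26 regions per 100 kb. With a window of 100 kb the share of linked regions that overlap a gene moved to 76.2% and the wholly intronic share to 62.8%, since the wider window adds regions outside the genes. With the midpoint of each region in place of its extent the wholly intronic share moved to 87.0%, since a midpoint overlaps fewer exons. Of 50 densities of single genes, 46 stayed within 1.5 times the reported value. The other 4 were Tcf7l2 (3.13), Igf2bp2 (6.71) and Adcy5 (1.99 regions per 100 kb) with regions of at least 1000 bp, and Cdkn2a (4.96) by midpoint. Densities of all genes were not recomputed at that width, so no rank is given there. With 1 library there was no replicate to leave out, and a paired analysis could not be made. The depth of the library is unknown, so empty stretches such as those of Dgkb are stretches without a called region, and region edges are known to 200 bp at best.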

Other observations

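Paralogues of the 10 genes were listed after the values of the 10 were seen, and are given as values only. Of 25 paralogues, 24 were overlapped by a region and 17 had a region over a TSS, with a median of 4.91 regions per 100 kb. Over all protein-coding genes 64.5% were overlapped and 39.1% had a region over a TSS, and the median was 4.08. Igf2bp1 and Igf2bp3 had 4.10 and 1.54 regions per 100 kb, beside 10.55 at Igf2bp2, and both had a region over a TSS. The Tcf7l2 paralogues Tcf7, Tcf7l1 and Lef1 had 3.25, 4.91 and 3.51, beside 6.26 at Tcf7l2. Prox2 had 10.19, beside 10.22 at Prox1, and Cdkn2c had 15.84 and Cdkn2d 0, beside 9.91 at Cdkn2a and 21.1 at Cdkn2b. Cdk5rap1 had 5.315, beside 6.03 at Cdkal1. Among the diacylglycerol kinases the density ran from 1.98 at Dgki to 13.2 at Dgkd, and all 8 lay above the 1.06 of Dgkb. Among the adenylyl cyclases the density ran from 1.32 at Adcy2 to 11.3 at Adcy6, beside 3.31 at Adcy5. Gene lengths differ within these families, and the differences were not tested.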
